A study of Mus musculus domesticus with 12 samples.

Results

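Both catalytic subunits of the nuclear RNA exosome were knocked down separately in mouse fetal liver erythroid cells, and the transcriptomes of the 2 knockdowns were compared with each other. The comparison used all 4 libraries with a short hairpin RNA (shRNA) against Dis3 (shDis3) and all 4 with one against Exosc10 (shExosc10), 8 of the 12 libraries of the series, chosen by their titles. The other 4 libraries carried an shRNA against firefly luciferase (shLuc), a gene that mouse cells lack. They entered the fit for its estimate of the spread and are given as the reference level. All 3 groups were C57BL/6J fetal liver at E14.5, depleted of lineage-positive cells, infected with a retrovirus that carried the shRNA, and grown for 2 days in medium for erythroid expansion. GFP+ cells without the late erythroid antigen Ter119 and with intermediate to high CD71, the transferrin receptor, were then sorted. This gate takes erythroid precursors and proerythroblasts together, and markers of other lineages were present too, as given below. Each target was addressed by RNA interference, which lowers a transcript without removing it, and the labels name 1 target per group without saying how many hairpins were used. The labels do not state whether libraries of a group came from separate litters or cultures, so the p-values measure the spread between these libraries, which may be technical.

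The exosome is a barrel of non-catalytic subunits that threads RNA towards its nucleases. Dis3 sits at the exit of the barrel and degrades RNA processively from the 3′ end, with an endonuclease activity as well, whereas Exosc10 (Rrp6 in yeast) sits on the cap and trims RNA one nucleotide at a time, with known roles in maturing ribosomal and small nucleolar RNA. Adaptor complexes with the helicase Mtrex bring nuclear RNA to the complex. In erythroid precursors the exosome is known to restrain terminal differentiation. The direct comparison asks which transcripts differ with the nuclease that was depleted.

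Library totals ranged from 14936178 to 32397192 counts, and 17650 of 55385 genes passed the filter on low counts. All 12 erythroid markers passed it, among them the transcription factors Gata1 (81.9 to 128 CPM, counts scaled to library size, over the 8 libraries) and Klf1 (85 to 170 CPM). Granulocyte and megakaryocyte markers were also present in every library. The 12 erythroid markers summed to 1640 to 2770 CPM in shDis3 and 2020 to 3900 CPM in shExosc10. The 6 granulocyte markers summed to 2080 to 4780 CPM and 1290 to 2040 CPM. The granulocyte sum exceeded the erythroid sum in every shDis3 library, shExosc10 replicate 1 and shLuc replicate 4, and in no other. The share of cells of each lineage was not tested. Of the mast cell markers, Fcer1a had no count in any of the 8 and Mcpt8 stayed at or under 1.63 CPM. Gata2 (52.8 to 139 CPM), Cpa3 (3.28 to 73.1 CPM) and Ms4a2 (3.54 to 27 CPM) were present in all 8. The lymphoid marker Il7r stayed at or under 0.629 CPM in them, while Nkg7 of the lymphoid list reached 9.43 CPM. Several libraries did not sort by their shRNA. Across genes, which are not independent replicates, the correlation of log2 values was 0.975 between shDis3 replicate 4 and shExosc10 replicate 1, and 0.982 between shDis3 replicate 3 and shLuc replicate 4. Average-linkage clustering cut into 3 put shDis3 replicates 1, 3 and 4 with shExosc10 replicate 1 and shLuc replicate 4, which is called the first cluster here. It put shDis3 replicate 2 with shExosc10 replicates 2, 3 and 4 and shLuc replicates 2 and 3, the second cluster. The third held shLuc replicate 1. Cluster and shRNA were thus partly mixed, and values are also given inside the clusters, where the first has 1 shExosc10 library and the second 1 shDis3 library, so that these differences carry no test. Olfactory receptor genes summed to 161.6 to 664.6 CPM in the second cluster and to 7.315 to 38.87 CPM in all other libraries. Its only shDis3 library, replicate 2, had the highest sum, the most genes at 1 CPM (17380) and the lowest total (14936178 counts). Every difference inside the second cluster rests on that library, and the part of these traits was not tested.

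The targeted genes were the clearest difference between the knockdowns, and the only one called. Dis3 lies on chromosome 14 (GRCm38, 99075206 to 99099770) and Exosc10 on chromosome 4 (148558429 to 148582401). Dis3 measured 32.7, 24.7, 43.2 and 52.4 CPM in the shDis3 libraries and 196, 130, 130 and 117 CPM in the shExosc10 libraries (replicates 1 to 4). The groups did not overlap, and the shExosc10 values lay in and above the range of shLuc (126, 126, 113 and 160 CPM). Dis3 was lower in shDis3 by a log2 fold change of -1.90 (SE 0.24, adjusted p = 0.0138, edgeR's quasi-likelihood test with Benjamini-Hochberg adjustment over all 17650 genes). Exosc10 measured 117, 80.1, 116 and 141 CPM in shDis3 and 30.8, 25.8, 18.9 and 30.2 CPM in shExosc10, beside 85.4, 92.4, 102 and 113 CPM in shLuc. All shDis3 libraries lay above all shExosc10 libraries. The log2 fold change was 2.11 (SE 0.21, adjusted p = 0.00144 by edgeR). Inside the first cluster the 2 genes differed by log2 values of -2.22 (Dis3) and 2.01 (Exosc10), and inside the second by -2.34 and 1.71. The call of Dis3 was lost without shDis3 replicate 1 (adjusted p = 0.175), shDis3 replicate 3 (0.0714) or shExosc10 replicate 3 (0.0533), by edgeR, with log2 fold changes of -1.83, -1.96 and -1.96.

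**Figure D1:**
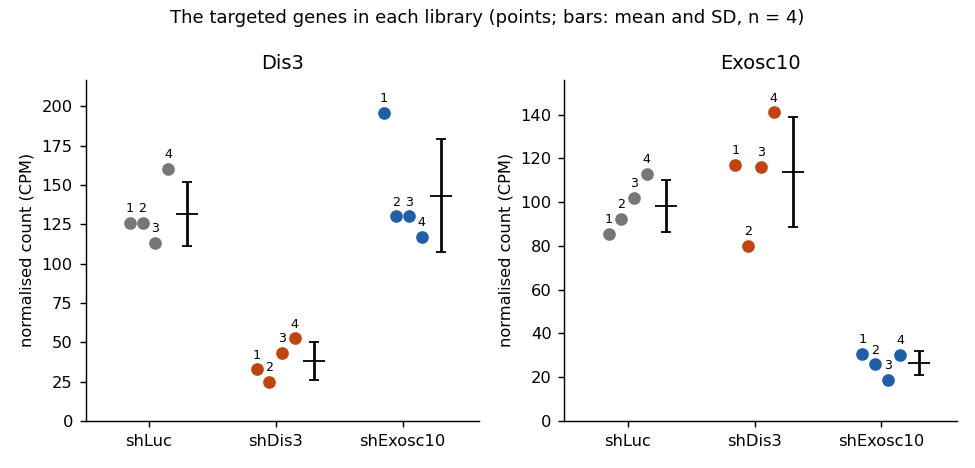
Normalised counts (CPM) of Dis3 and Exosc10 in each library (numbered points) with the mean and SD of each group (bars, n = 4). Dis3 stays at or under 52.4 CPM in shDis3 and at or above 113 CPM elsewhere, and Exosc10 stays at or under 30.8 CPM in shExosc10 and at or above 80.1 CPM elsewhere.

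In TPM, a scale that allows for gene length, Exosc10 stood at 42.1 ± 12.7 TPM in shDis3 and 8.96 ± 1.54 in shExosc10, and Dis3 at 15.3 ± 6.7 and 40.4 ± 8.92 (SD, n = 4). The related nucleases were less abundant. Dis3l, a cytoplasmic relative of Dis3, stood at 9.16 ± 2.91 and 7.42 ± 1.95 TPM (log2 fold change 0.50, SE 0.23), and Dis3l2, which degrades uridylated RNA outside the exosome, at 7.44 ± 2.2 and 7.52 ± 0.751 TPM (-0.10, SE 0.16). Of 9 ring and cap subunits, 8 were measured and none had groups apart. Their log2 fold changes ran from -0.38 to 0.37, with a median of -0.18. Inside the first cluster the median was -0.52 with 8 of 8 negative, and inside the second -0.28 with 6 of 8 negative. Exosc9 stood at 69.5 ± 9.94 and 69.7 ± 16.3 TPM, and Exosc8 at 67.2 ± 10.5 and 75.8 ± 10.3 TPM. Exosc6 was listed at 0 in every library and was not tested.

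Adaptors and cofactors of the exosome also differed by small amounts with all libraries. Among 21 of 23 measured, 8 were positive and 13 negative, from -0.38 to 0.39, and none had groups apart. Inside the first cluster their median was -0.2 with 12 of 21 negative, and inside the second -0.23 with 20 of 21 negative. Mtrex measured 141, 142, 175 and 239 CPM in shDis3 and 254, 186, 198 and 183 in shExosc10 (log2 fold change -0.24, SE 0.20). Of 27 other RNA decay enzymes, 3 lay lower in shDis3 in all pairs of libraries, by small amounts, where 1.80% of all genes do. With the GC trend described below removed, none of the 3 stayed apart. Xrn1, the cytoplasmic 5′ to 3′ exonuclease, measured 52.1 to 60 CPM in shDis3 and 61.2 to 66.2 in shExosc10 (-0.19, SE 0.15). The deadenylase Cnot7 stood at -0.31 (SE 0.15) and the exonuclease Eri1 at -0.22 (SE 0.14), and none of these 3 was called.

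Beyond the targets no gene passed the threshold, so the remaining differences are described by whether the groups overlap. One gene was called higher and 1 lower, each 0.00567% of those tested. For 337 genes (1.91%) all 4 shDis3 libraries lay above all 4 shExosc10 libraries, and for 318 genes (1.80%) all 4 lay below. Without adjustment, edgeR's p was under 0.05 for 562 genes that lay higher (3.18%) and for 493 that lay lower (2.79%). DESeq2, an alternative count test, called 15 genes higher (0.131% of its 11415 genes with an adjusted p) and 47 lower (0.412%), and 50 of these 62 were genes with groups apart. The median log2 fold change over all genes was 0.01.

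Genes with groups apart differed in base composition by direction. In the longest annotated transcript, the genes higher in shDis3 had a median GC content of 53.3% and those lower 42.7%, beside 48.8% over all genes tested. Among 9018 protein-coding genes with a mean above 5 CPM, the 20% with the lowest GC content held 9 genes higher and 153 lower, and the 20% with the highest held 74 higher and 0 lower. The libraries themselves differed in this respect. The median log2 deviation of the GC-rich end minus that of the GC-poor end was 0.54, 0.03, 0.38 and -0.24 in the shDis3 libraries and -0.46, -0.14, -0.23 and -0.13 in the shExosc10 libraries. The groups overlapped in this tilt, since shDis3 replicate 4 lay among the shExosc10 libraries, and shLuc spanned both (-0.25, -0.15, 0.32 and 0.40). With each library's GC trend removed, 578 genes lay apart (3.27%), 314 of them higher and 264 lower. Of the 337 higher genes 172 remained apart (51%) and of the 318 lower genes 140 (44%). The part of base composition in single genes was not tested further. Dis3 and Exosc10 again were the only genes called by edgeR, at -1.80 (SE 0.19, adjusted p = 0.00239) and 1.95 (SE 0.17, adjusted p = 0.00052).

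**Figure D2:**
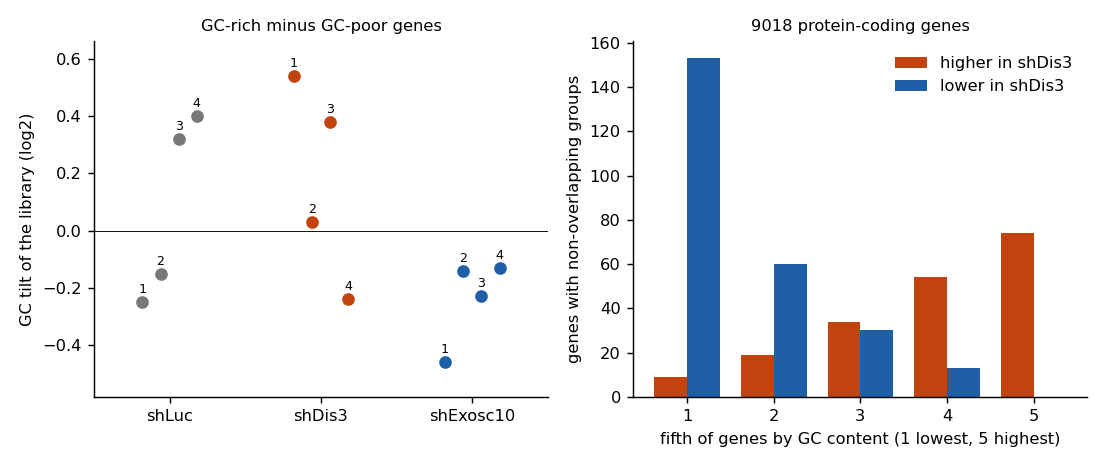
Left, the GC tilt of each library (log2, numbered points), which is the median deviation of the 20% most GC-rich protein-coding genes minus that of the 20% most GC-poor. Right, the number of genes with non-overlapping groups in bins of rising GC content, where the count of genes higher in shDis3 climbs from 9 to 74 and that of genes lower drops from 153 to 0.

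Among named genes with groups apart and at least 5 CPM in the higher group, 10 with large positive log2 fold changes are described, which include receptors and signalling proteins. Jak3, a kinase of cytokine receptors, measured 19.4, 13, 20.7 and 12 CPM in shDis3 and 6.67, 3.84, 3.37 and 6.65 in shExosc10 (log2 fold change 1.67, SE 0.37). Notch1, a receptor of cell fate decisions, measured 47.9, 24.7, 41.2 and 19.8 CPM and 12.1, 10.9, 15.4 and 12.3 CPM (1.40, SE 0.43). For Notch1 the shLuc libraries spanned both knockdowns, with replicate 4 at 40.1 CPM and the others at 9.08 to 12 CPM.

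For a pair of these genes, singled out after their values were seen, no shLuc library reached the shDis3 range. Sulf2, an extracellular heparan sulfatase, measured 13.8, 9.62, 5.03 and 4.59 CPM in shDis3, 1.52, 3.16, 3.5 and 2.64 in shExosc10 and 1.48 to 1.84 in shLuc (1.61, SE 0.38). Gpx3, the secreted glutathione peroxidase, measured 90.3, 56.4, 28.2 and 35.3 CPM in shDis3, 15.9, 17.9, 24.8 and 15.3 in shExosc10 and 19.4 to 25.9 in shLuc (1.51, SE 0.31). For both, shDis3 replicates 1 and 2 were the highest of all libraries. Inside the 2 clusters Sulf2 differed by 2.14 and 1.63, and Gpx3 by 1.49 and 1.57. With the GC trend removed, the groups overlapped for Gpx3 (1.3, SE 0.29) and stayed apart for Sulf2 (1.46, SE 0.39).

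The other 6 were Ptk7, a receptor pseudokinase of planar cell polarity (1.56, SE 0.64), the endocytic adaptor Ston2 (1.54, SE 0.44), the mitochondrial NOD-like protein Nlrx1 (1.47, SE 0.39), the GTPase-activating protein Arhgap27 (1.46, SE 0.55), the DNA-binding protein Arid3a (1.44, SE 0.41) and the polarity protein Pard3b (1.34, SE 0.52) (log2 fold changes). Once the GC trend was removed, the groups overlapped for Ptk7 as well (1.26, SE 0.61). The adjusted p of the 10 genes ran from 0.666 to 0.784 (edgeR), and shLuc replicate 4 exceeded every other shLuc library in 8 of them. DESeq2 called Gpx3, Jak3 and Sulf2 (adjusted p = 0.00461, 0.0108 and 0.0338).

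Among named genes with groups apart and at least 5 CPM in the higher group, 11 with large negative values are described, and several encode metabolic enzymes. Cth, which makes cysteine from cystathionine, measured 0.526, 1.31, 0.607 and 1.44 CPM in shDis3 and 2.39, 5.34, 7.47 and 14.5 in shExosc10 (log2 fold change -2.94, SE 0.80). Acsl6, an acyl-CoA synthetase of erythroid cells, measured 1.13 to 2.57 CPM and 2.8 to 10 CPM (-2.0, SE 0.61). Ak4, a mitochondrial adenylate kinase, measured 6.69, 8.19, 13.5 and 17.8 CPM and 25.1, 34.5, 43.2 and 27.8 CPM (-1.50, SE 0.34). In all 3, shLuc replicate 4 lay far below the other shLuc libraries, at 0.268, 0.603 and 14.7 CPM. Lpl, the lipoprotein lipase (-1.33, SE 0.36), Gpt2, the mitochondrial alanine aminotransferase (-1.23, SE 0.30), and the glutathione transferase Gsta4 (-1.41, SE 0.40) also had groups apart.

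Sfrp4, a secreted inhibitor of Wnt signalling, was singled out for its shLuc values, which lay with shDis3. It measured 3.05, 2.81, 2.08 and 1.37 CPM in shDis3, 6.25, 9.87, 9.17 and 6.02 in shExosc10 and 2.46 to 3.06 in shLuc (-1.75, SE 0.30, adjusted p = 0.251 by edgeR). The shExosc10 libraries thus lay above all 8 others. Its difference was -1.59 in the first cluster and -1.53 in the second, and -1.63 (SE 0.32) with the GC trend removed, where the groups remained apart. DESeq2 called it (adjusted p = 0.000216).

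Prelid2 measured 3.38, 2.09, 9.6 and 5.89 CPM in shDis3 and 15.7, 33, 43.1 and 35.8 in shExosc10 (-2.59, SE 0.55), with shLuc at 7.11 to 45.2 CPM. Hopx, a homeodomain-only protein, stood at -1.28 (SE 0.35), the membrane protein Dcbld2 at -1.37 (SE 0.38) and Nxpe2 at -1.24 (SE 0.30). In the first cluster the differences of Dcbld2, Lpl and Nxpe2 were -0.37, -0.34 and -0.34, against -1.35, -1.41 and -1.54 in the second. For these 3 genes and Acsl6 the groups overlapped once the GC trend was removed.

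**Figure D3:**
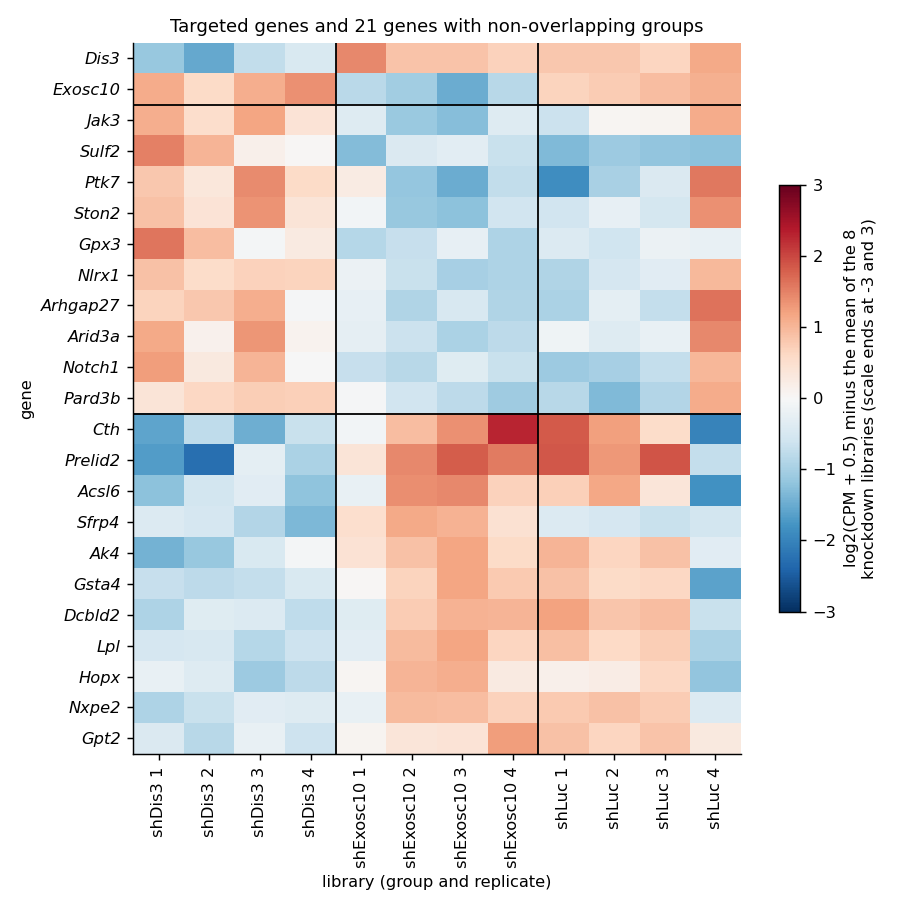
Level of Dis3, Exosc10 and the 21 genes described above in each library (columns), as log2(CPM + 0.5) minus the mean of the 8 knockdown libraries (colour, red higher and blue lower). The 21 genes were chosen for groups that do not overlap, so the shDis3 and shExosc10 columns differ in their rows by choice. The column of shLuc replicate 4 resembles shDis3 in most rows.

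Genes of cholesterol synthesis lay lower in shDis3 than in shExosc10 as a group. Of 25 measured, 23 were negative and 2 positive, from -0.85 to 0.18, with a median of -0.48, and 8 had groups apart lower (32% of the list, where 1.80% of all genes do). No member was called by edgeR, and 12 had an unadjusted p under 0.05, all lower, where 2.79% of all genes do. Cyp51, the lanosterol demethylase, measured 115, 90.5, 128 and 152 CPM in shDis3 and 195, 208, 250 and 179 in shExosc10 (-0.78, SE 0.18), with shLuc at 150 to 182 CPM. Hsd17b7, an enzyme of the later pathway, measured 9.29, 7.83, 16.2 and 17.2 CPM and 28.3, 21.7, 22.8 and 18.7 CPM (-0.85, SE 0.25). The squalene steps pointed the same way, with Fdft1 (squalene synthase) at -0.61 (SE 0.20), Sqle (squalene epoxidase) at -0.53 (SE 0.18) and Lss (lanosterol synthase) at -0.72 (SE 0.24). Also apart were Sc5d (a sterol desaturase, -0.63, SE 0.18), Stard4 (a sterol carrier, -0.63, SE 0.18) and Insig1 (which holds back the SREBP pathway, -0.59, SE 0.19). In all lists, members that are named because their groups were apart were picked after their values were seen.

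Within the cholesterol list, the mean log2 level relative to the 8 knockdown libraries was -0.29, -0.64, -0.08 and 0.04 in shDis3, whereas the shExosc10 libraries stood at 0.20, 0.13, 0.41 and 0.23. The groups did not overlap, and every shLuc library (0.25, 0.11, 0.19 and 0.06) lay above every shDis3 library. The list median was -0.43 inside the first cluster and -0.91 inside the second, with 19 of 25 genes negative in both. With the GC trend removed the median was -0.48 and 9 genes lay apart lower. DESeq2 called 3 of the 25 lower, namely Cyp51, Sc5d and Stard4 (adjusted p = 0.00188, 0.0322 and 0.0336).

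The hypoxia response had the lowest median of the lists, with the difference inside the second cluster. Of 24 genes measured, 21 were negative, with a median of -0.81 and values from -3.03 to 0.27. By edgeR 16 had an unadjusted p under 0.05, all lower in shDis3, where 2.79% of all genes do. The groups lay apart for 3, all lower, where 1.80% of all genes do. Ero1l, an oxidase of protein folding, measured 91.1, 77.8, 115 and 112 CPM in shDis3 and 149, 168, 212 and 214 in shExosc10 (-0.91, SE 0.22). P4ha1, a collagen prolyl hydroxylase, measured 25.8 to 47.1 and 48 to 77.8 CPM (-0.96, SE 0.25), and Ak4 was the third. Bnip3, a mitophagy receptor induced by low oxygen, measured 13, 13.4, 18 and 22.7 CPM in shDis3 but 17.6, 80.7, 115 and 101 in shExosc10 (-2.23, SE 0.58). Ankrd37 had the same form, at 1.24 to 2.81 CPM and 2.69, 12.7, 27.4 and 19 CPM (-3.03, SE 0.82). For Bnip3 and Ankrd37, shExosc10 replicate 1 lay within the shDis3 range while the other shExosc10 libraries lay far above it.

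The list score of the hypoxia genes separated shExosc10 replicate 1 (-0.47) from replicates 2, 3 and 4 (0.64, 0.88 and 0.73) and lay between -0.56 and -0.37 in shDis3. In shLuc it was -0.52 in replicate 4 and 0.68 to 1.0 in the others. The median difference was 0.01 inside the first cluster and -1.24 inside the second, where the 24 genes were negative in the single shDis3 library against the mean of the shExosc10 libraries. Glycolysis genes had the same form (18 of 21 negative, median -0.36, and 0.01 and -0.91 in the clusters). The 2 members apart both lay lower, where 1.80% of all genes do. Pfkp, a phosphofructokinase, measured 63.7, 44.6, 63.6 and 74.7 CPM against 78.1, 105, 119 and 147 CPM (-0.87, SE 0.26). Pgam1, a phosphoglycerate mutase, stood at -0.49 (SE 0.19). Targets of the stress factor ATF4 had a median of -0.22 (30 of 37 negative), and -0.09 and -0.63 in the clusters. Of the 37, 1 lay apart lower, where 1.80% of all genes do. Asns, asparagine synthetase, measured 145 to 264 CPM in shDis3 and 273 to 336 CPM in shExosc10 (-0.65, SE 0.24).

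**Figure D4:**
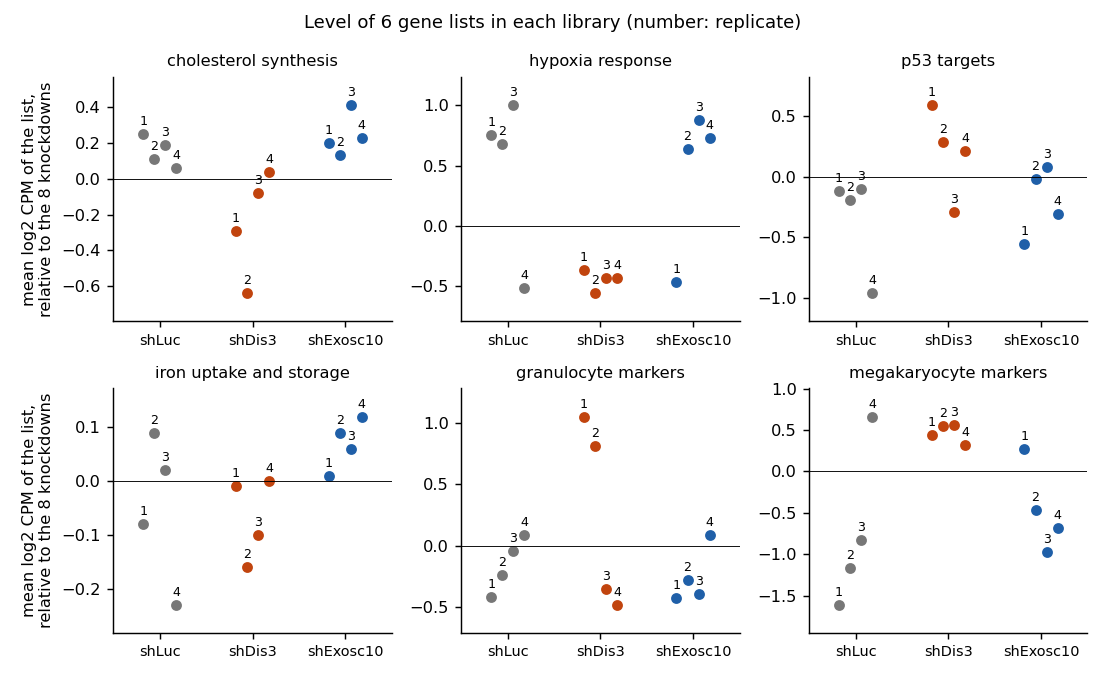
Mean log2 CPM of the members of 6 gene lists in each library (numbered points), relative to the mean of the 8 knockdown libraries, by group. The cholesterol scores of the knockdowns do not overlap (up to 0.04 in shDis3 and from 0.13 in shExosc10), whereas in the hypoxia list shExosc10 replicate 1 (-0.47) and shLuc replicate 4 (-0.52) sit at the shDis3 level.

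Iron handling, which supplies heme synthesis, showed groups apart for 3 of 15 genes, all lower in shDis3 (1.80% of all genes lay apart lower), although the list's median was -0.06. With the GC trend removed, Slc40a1 and Aco1 stayed apart and Tfrc did not. Tfrc, the transferrin receptor that is stained as CD71 in the sort, measured 474, 521, 362 and 560 CPM in shDis3 and 618, 921, 1210 and 1110 in shExosc10 (log2 fold change -1.01, SE 0.34). In shLuc it measured 351 CPM in replicate 4 and 906 to 1410 CPM in the others. Slc40a1, the iron exporter ferroportin, measured 16.1, 13.9, 16.7 and 13.7 CPM and 26.4, 33.3, 35.6 and 23.7 CPM (-0.98, SE 0.19), beside 15.7 to 21.4 CPM in shLuc, so that the shExosc10 libraries stood above all others. It differed by -0.77 and -1.12 inside the clusters, and DESeq2 called it (adjusted p = 0.00092). Aco1, the iron-sensing aconitase, stood at -0.85 (SE 0.26), with -0.17 and -1.41 in the clusters.

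In heme synthesis 11 of 14 genes were negative (median -0.23), and 2 lay apart lower, where 1.80% of all genes do. Among these was Uros, an enzyme of porphyrin synthesis (10.5 to 15 against 16.5 to 31.1 CPM, -0.79, SE 0.29). The direction of the heme list differed between the clusters, with a median of 0.11 in the first (8 of 14 positive) and -0.38 in the second (11 of 14 negative). In the list of membrane and maturation genes of red cells, 28 of 35 were negative (median -0.31) and 2 apart, the surface protein Cd24a (-0.72, SE 0.27) and the mitophagy receptor Bnip3l (-0.54, SE 0.21), neither of which stayed apart with the GC trend removed. The red cell list was 0.29 inside the first cluster and -0.52 inside the second, so that its direction differed between them. The 6 of 11 globins measured had a median of -0.21 with 2 positive, and none had groups apart. Their reads are shared between near-identical copies. Gata1 and Klf1, the leading erythroid transcription factors, stood at 0.08 (SE 0.17) and -0.15 (SE 0.21), and none of 22 erythroid transcription factors had groups apart.

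Targets of p53 lay higher in shDis3. Of 40 measured, 30 were positive and the median was 0.47. By edgeR 10 had an unadjusted p under 0.05, all in that direction, where 3.18% of all genes do. The groups lay apart for 2, both higher, where 1.91% of all genes do. Pmaip1 (Noxa), a pro-death BH3 protein, measured 26.7, 19.2, 19.4 and 34.7 CPM in shDis3 and 15.8, 14.9, 13.1 and 9.74 in shExosc10 (0.90, SE 0.24). Phlda3, an inhibitor of AKT, measured 45.6, 31, 23.7 and 30.3 CPM and 13.1, 23.1, 20.4 and 19.1 CPM (0.79, SE 0.32). The best known members overlapped. Cdkn1a, the p21 cell cycle inhibitor, measured 128, 92.6, 40.9 and 53.6 CPM in shDis3 and 22.1, 80.7, 71 and 48.8 in shExosc10 (0.50, SE 0.44), and Mdm2, the p53 ubiquitin ligase, stood at 0.41 (SE 0.23). Unlike the hypoxia list, the p53 list was positive in both clusters, at 0.67 and 0.37, with 27 of 40 genes positive in both. shDis3 replicate 3 was the exception in its group, with a list score of -0.29 beside 0.59, 0.29 and 0.21. The shExosc10 scores were -0.55, -0.02, 0.08 and -0.31, so that the list scores of the knockdowns overlapped. With the GC trend removed the median was 0.37, and 4 targets lay apart, 2 in each direction, with Pmaip1 but not Phlda3 among them. Without shDis3 replicate 1 the list median was 0.23. Cdkn1a was chosen after its values were seen, as were Ankrd37, Gata1, Klf1, Cd34 and Cebpa elsewhere.

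Among 23 apoptosis regulators 1 lay apart in each direction, where 1.91% of all genes lay apart higher and 1.80% lower. Cflar, which blocks caspase 8, measured 29.5 to 33 CPM and 18.9 to 22.8 CPM (0.62, SE 0.19). Of 23 genes of erythropoietin and KIT signalling, Id1 lay apart higher (0.60, SE 0.20), though not with the GC trend removed, and the receptor Kit itself stood at -0.46 (SE 0.21).

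The medians of the lists for other blood lineages were positive, but only that for granulocytes exceeded 0.10 inside both clusters. Of 24 megakaryocyte genes 23 were positive, the median was 0.91 and 1 had groups apart higher, where 1.91% of all genes do. The median was 0.10 inside the first cluster and 1.26 inside the second. The 6 defining megakaryocyte markers summed to 271 to 341 CPM in shDis3, 116 to 296 CPM in shExosc10 and 66.3 to 389 CPM in shLuc. Stem and early progenitor genes had a similar form (18 of 23 positive, median 0.63, and 0.08 and 1.02 in the clusters). Cd34 measured 32.4, 28.3, 52.8 and 54.3 CPM in shDis3 and 59.5, 8.29, 7.31 and 7.97 in shExosc10, with replicate 1 the highest of the 8. Macrophage genes had a median of 0.76, and -0.05 and 0.92 in the clusters. Mast cell genes (median 0.24, and -0.28 and 0.23 in the clusters) and lymphoid genes (0.39, and -0.47 and 1.40) turned direction between the clusters, with 8 of 11 and 10 of 12 negative in the first.

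The granulocyte list had a positive median in both clusters (0.55 and 1.12), with 14 of 19 genes positive in both and 4 negative in the first. With all libraries 17 were positive, the median was 0.67, and 2 had groups apart higher, where 1.91% of all genes do. With the GC trend removed, neither of these 2 stayed apart. Mpo, the myeloperoxidase of granule precursors, measured 3750, 2500, 2820 and 1560 CPM in shDis3 and 1500, 1110, 819 and 869 in shExosc10 (1.31, SE 0.48). The 6 defining granulocyte markers summed to 2080 to 4780 CPM in shDis3, 1290 to 2040 CPM in shExosc10 and 1040 to 4220 CPM in shLuc. Cebpe, a factor of late granulocyte maturation, measured 9.05 to 14.6 CPM and 3.64 to 7.84 CPM (1.0, SE 0.42). The difference lay mainly with shDis3 replicates 1 and 2, whose list scores were 1.05 and 0.81, whereas replicate 3 (-0.35) lay among the shExosc10 scores (-0.43, -0.28, -0.39 and 0.09) and replicate 4 (-0.48) below all of them. In bulk RNA more cells of a lineage and more RNA per cell cannot be told apart. The part of these lineages in the other differences was not tested.

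**Figure D5:**
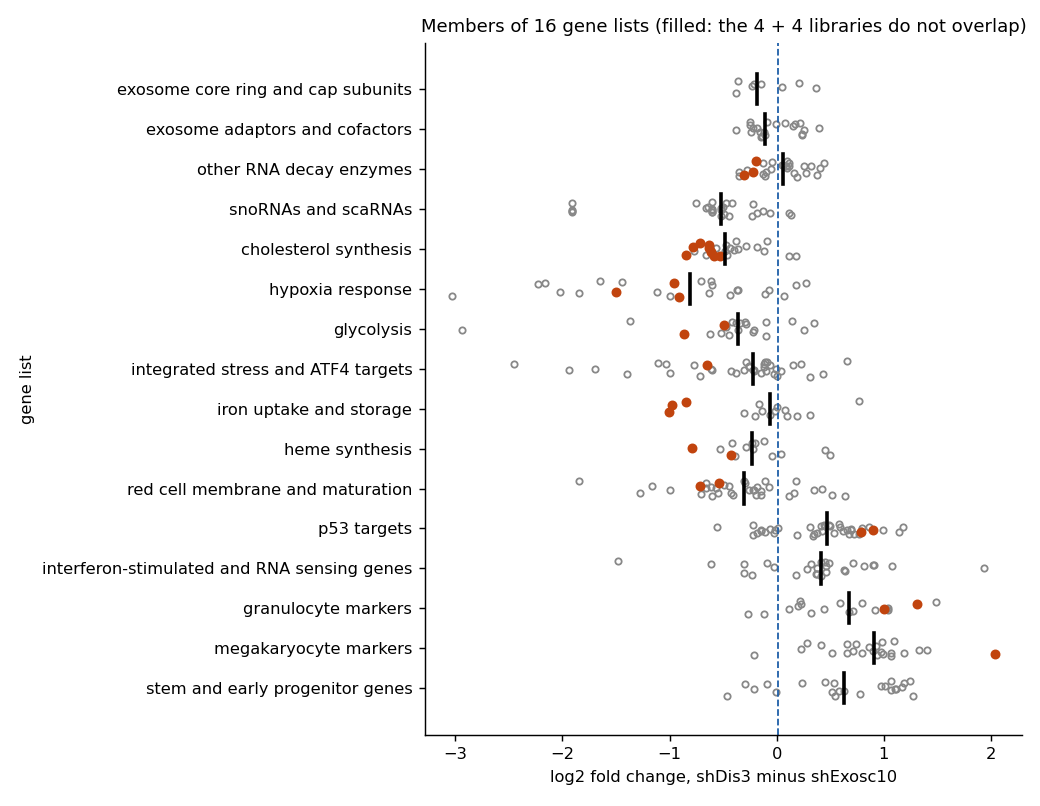
Log2 fold change (shDis3 minus shExosc10) of every measured member of 16 gene lists, with the list median (black bar) and the median of all genes, 0.01 (dashed line). Filled points are members whose 4 libraries in each group do not overlap, of which cholesterol synthesis has 8.

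Small structured RNAs, which the exosome is known to process, overlapped between the knockdowns. Of 27 measured snoRNAs and scaRNAs, small guides of RNA modification, 25 were negative with a median of -0.52, but none had groups apart, and the median was -0.49 inside the first cluster and 0.13 inside the second. The 11 snRNAs that could be measured lay below 0 throughout (median -0.46), with overlapping groups. The share of counts in these classes together was 0.0643% ± 0.035 in shDis3 and 0.0854% ± 0.0278 in shExosc10 (SD, n = 4, p = 0.371, two-sided exact permutation test). Long non-coding and antisense RNAs took 4.80% ± 1.86 and 4.13% ± 1.54 of counts (p = 0.514, the same exact test). The smallest p that 4 against 4 libraries allow is 0.0286, so that after adjustment over the 8 such measures computed a single separated measure could not have passed (adjusted p = 0.724 to 0.943, exact permutation tests). Of 72 bidirectional promoter lncRNAs 3 lay apart higher (4.17%, where 1.91% of all genes do). Of 103 sense intronic RNAs 3 lay apart lower (2.91%, where 1.80% of all genes do). Of protein-coding genes 2.27% lay apart higher and 2.05% lower. In each of 2 pseudogene classes 1 gene lay apart lower, of 46 unprocessed (2.17%) and of 51 transcribed unprocessed (1.96%). The remaining classes lay below the shares of all genes, with 7 of 612 lincRNAs apart in each direction (1.14%). Of 451 antisense RNAs 4 lay apart higher (0.887%) and 1 lower (0.222%). Firre, a nuclear lncRNA, lay apart higher (0.64, SE 0.24) and stayed so with the GC trend removed, and Gas5, a host gene of snoRNAs, lay apart lower (-0.36, SE 0.26) and did not. Replication-dependent histone genes had a median of -0.18 (60 of 66 negative, none apart) and ribosomal protein genes of -0.17 (63 of 81 negative, 2 apart). Ribosome biogenesis genes, a group tied to Exosc10 through ribosomal RNA processing, had a median of 0.11 with all libraries and none apart. Inside the clusters their direction was the reverse, with a median of -0.25 in each. Of the 52 genes, 39 were negative in the first cluster and 50 in the second, 37 in both, and 0 were positive in both.

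Proliferation genes differed little in the median with all libraries and had lower medians in shDis3 inside both clusters. Of 36 S phase genes 1 lay apart, Ccne2 (cyclin E2), at 38.8 to 63.6 CPM in shDis3 and 71.1 to 91.6 in shExosc10 (-0.74, SE 0.26), and of 34 genes of G2 and mitosis 1, Prc1, a protein of the spindle midzone (-0.55, SE 0.18). In each list the single gene apart lay lower, where 1.80% of all genes do. The medians were -0.07 and -0.14 with all libraries, -0.16 and -0.21 inside the first cluster and -0.36 and -0.38 inside the second. Of the S phase genes 21 were negative in both clusters and 0 positive in both. Of the G2 and mitosis genes 26 were negative in both and 2 positive in both. Of 27 interferon-stimulated and RNA sensing genes 20 were positive with a median of 0.41. None had groups apart, and the list scores of the knockdowns overlapped (-1.06 to 1.12 in shDis3 and -0.99 to 0.47 in shExosc10).

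When the 3 knockdown libraries and 1 control of the 2 most correlated pairs across groups were left out (shDis3 replicates 3 and 4, shExosc10 replicate 1 and shLuc replicate 4), many more genes passed the edgeR threshold. This set is not the only one possible, since shDis3 replicate 2, which was kept, correlated with shExosc10 replicates 2, 3 and 4 at 0.954, 0.944 and 0.946 and with its own group at 0.896 to 0.915. That fit rested on 2 shDis3 and 3 shExosc10 libraries and called 287 genes higher (1.32% of 21703 tested) and 179 lower (0.825%). Because the libraries were left out for their expression, its p-values describe those that remained. It called 14 of 24 hypoxia genes and 7 of 25 cholesterol genes lower, 12 of 19 granulocyte and 9 of 24 megakaryocyte genes higher, 4 of 40 p53 targets higher, and the 3 iron genes named above lower. Cebpa, the factor that opens the granulocyte program, stood at 1.84 (SE 0.26, adjusted p = 0.000409) and Bnip3 at -2.92 (SE 0.24, adjusted p = 4.09e-07) in that edgeR fit. Of its 466 genes, 465 had the same sign with all libraries, 115 had groups apart there, and 333 had the same sign inside both clusters. Because that fit used part of the same libraries, this agreement is no independent check. Over all 17650 genes, 337 lay apart higher and 318 lower. Inside both clusters, 5440 of the 17650 were positive and 4349 negative.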

How the data were processed

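RNA was sequenced from 12 libraries with the SMARTer stranded total RNA pico kit v2, per the labels' protocols. The authors deposited RSEM gene tables with expected counts, and TPM values, per the file headers. STAR 2.5.3a, RSEM 1.3.0 and GRCm38 (mm10) come from the submitters' processing notes. The sources used here name neither an annotation release nor a strand setting, so reads of overlapping antisense genes may be mixed. Of the expected counts 4.55% were not whole, and all were rounded.

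Counts of all 12 libraries were fitted by group with edgeR 4.0.16 (R 4.3.3, TMM factors, filterByExpr, quasi-likelihood F-test, contrast shDis3 minus shExosc10). P-values were adjusted by Benjamini-Hochberg over 17650 genes with a threshold of 0.05, and the biological coefficient of variation was 60%. The 37735 genes under the filter were not tested. limma 3.58.1 and DESeq2 1.42.0 served for alternatives. TPM was tested as log2(TPM + 1). The fit was tested on simulated data. Names, classes and GC content came from GENCODE M21, which matched 55144 of 55385 gene IDs without their version. Groups are called apart where all 4 libraries of one lay above all 4 of the other. The score of a list averages its members' log2 CPM, each taken relative to the 8 knockdown libraries.

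Genes named are the targets, then, as fewer than 12 were called in a direction, the named genes with groups apart and at least 5 CPM in the higher group, by size of change up to 12 per direction, and in each list the 2 most abundant and the 2 with the smallest p. Some genes that this rule or a list would name are not reported here. Members and lists were chosen with earlier results of these data known. Replicates of a group differed by more than sampling noise, and all were kept.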

Additional observations from a re-analysis of the deposited data

Results flagged for a closer look

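Of 92 groups of 4 libraries examined with Dixon's ratio, 4 held a library far from the other three, and chance gives about 1 in 20. Dis3 measured 196 CPM in shExosc10 replicate 1, where the others measured 117 to 130. In shDis3 replicate 2, 17380 genes reached 1 CPM, against 11520 to 12160, and the olfactory receptor genes summed to 664.6 CPM, against 7.315 to 33.16. The score of ATF4 targets was -0.27 in shDis3 replicate 4 and -0.22 in the others of that group.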

How the results depend on the processing

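The number of genes called was 2 in the reported analysis and also with RLE factors, with the library cluster as a factor and with the GC trend removed. It was 62 with DESeq2, 179 with no filter on low counts, 1283 with limma-voom and sample weights (902 higher and 381 lower), and 466 without shDis3 replicates 3 and 4, shExosc10 replicate 1 and shLuc replicate 4. It was 1 with only the 8 knockdown libraries, 1 with a minimum fold change of 1.5, and 0 with limma on log2(TPM + 1), where 640 genes had an unadjusted p under 0.05. Leaving out 1 library at a time gave 1 to 2 calls. Dis3 was no longer called with only the 8 knockdown libraries (-1.91, adjusted p = 0.08), with the minimum fold change (-1.90, adjusted p = 0.104) or in the limma fit (-1.41, adjusted p = 1), nor was Exosc10 in the last (2.08, adjusted p = 0.18). With 1 library left out Dis3 ranged from -2.11 to -1.71 and Exosc10 from 1.97 to 2.24. With the replicate number as a block, 1 gene was called (Exosc10), and Dis3 stood at -1.93 (adjusted p = 0.0591, edgeR). Same-numbered libraries share only a number, since the correlations of their deviations were 0.11, 0.44, -0.28 and -0.44. The cause of these changes was not tested. The GC and within-cluster alternatives were chosen after seeing the data.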
